A study of Homo sapiens with 8 samples.

Results

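Solute carriers are membrane proteins that move amino acids, sugars, metals, vitamins, ions and lipids across cell and organelle membranes. The 63 SLC genes described here are those among the 4616 genes of 1 comparison of translation in melanoma cells. They were chosen by symbol alone: 67 rows have a symbol that starts with SLC and a digit, and 4 of these (SLC7A5, SLC3A2, SLC24A5 and SLC45A2) were left out by name. SLC40A1 and SLC11A2 were also left out by name and were not analysed here. The rule uses no measured value, though it was written with earlier results of these data known.

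The cells were WM902B, a human primary melanoma line whose BRAF gene is mutated and active, at passage 18. They carried either shTINCR, a hairpin against the long non-coding RNA TINCR, or shSCR, a scrambled hairpin, and all were treated with cycloheximide (100 µg/ml for 5 min), which halts elongating ribosomes. The 8 libraries formed 4 groups of 2 biological replicates: footprints and RNA of shTINCR cells, and footprints and RNA of shSCR cells. The labels name 1 line and 1 hairpin per condition, so neither a second line nor a second hairpin stands behind any value. Translational efficiency (TE) is the ratio of ribosome footprints to mRNA. The authors' deposited table gives it per gene as a log2 level under either hairpin, with the log2 change and p-values, and holds no value of a single library. Depth and the spread between replicates are therefore unknown. Whether a changed TE reflects more footprints or less mRNA cannot be told apart. TINCR had 0 rows, so its silencing was not checked, and all 6 melanocyte lineage genes looked for (MITF, SOX10, PMEL, TYR, MLANA and DCT) had a row.

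Carriers work by alternating access: a substrate is bound on one side of the membrane and released on the other, often together with a sodium ion or proton or in exchange for a second substrate. The SLC25 family sits mostly in the mitochondrial inner membrane and links the cytosol with respiration by moving ADP and ATP, phosphate, citrate and other metabolites. Most of the other families serve the plasma membrane, the secretory pathway or lysosomes, and their mRNAs are translated at the endoplasmic reticulum. Amino acid carriers set the supply that mTORC1 and the amino acid stress response sense.

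TE of 13 of the 63 SLC genes (20.6%) passed the authors' adjusted p below 0.05, against 16.4% of all 4616 genes. Of these, 11 rose in shTINCR cells (17.5%, against 8.23% of all genes) and 2 fell (3.17%, against 8.17% of all genes). The 11 that rose were SLC25A39, SLC52A2, SLC22A18, SLC5A6, SLC7A1, SLC43A3, SLC44A2, SLC4A2, SLC35B2, SLC1A4 and SLC20A1, with a median log2 change of 0.34. The 2 that fell were SLC25A5 and SLC4A7. The median log2 change over the 63 genes was 0.12 (1.08-fold), beside 0.02 over all genes, and 40 of the 63 changes were above 0 (63.5%, against 52.5% of all genes). Whether the SLC genes differ from other genes as a set was not tested. Changes beyond 0.5 on the log2 scale were seen in 2 SLC genes, SLC25A39 and SLC52A2, both upwards, and in 0 downwards.

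**Figure D1:**
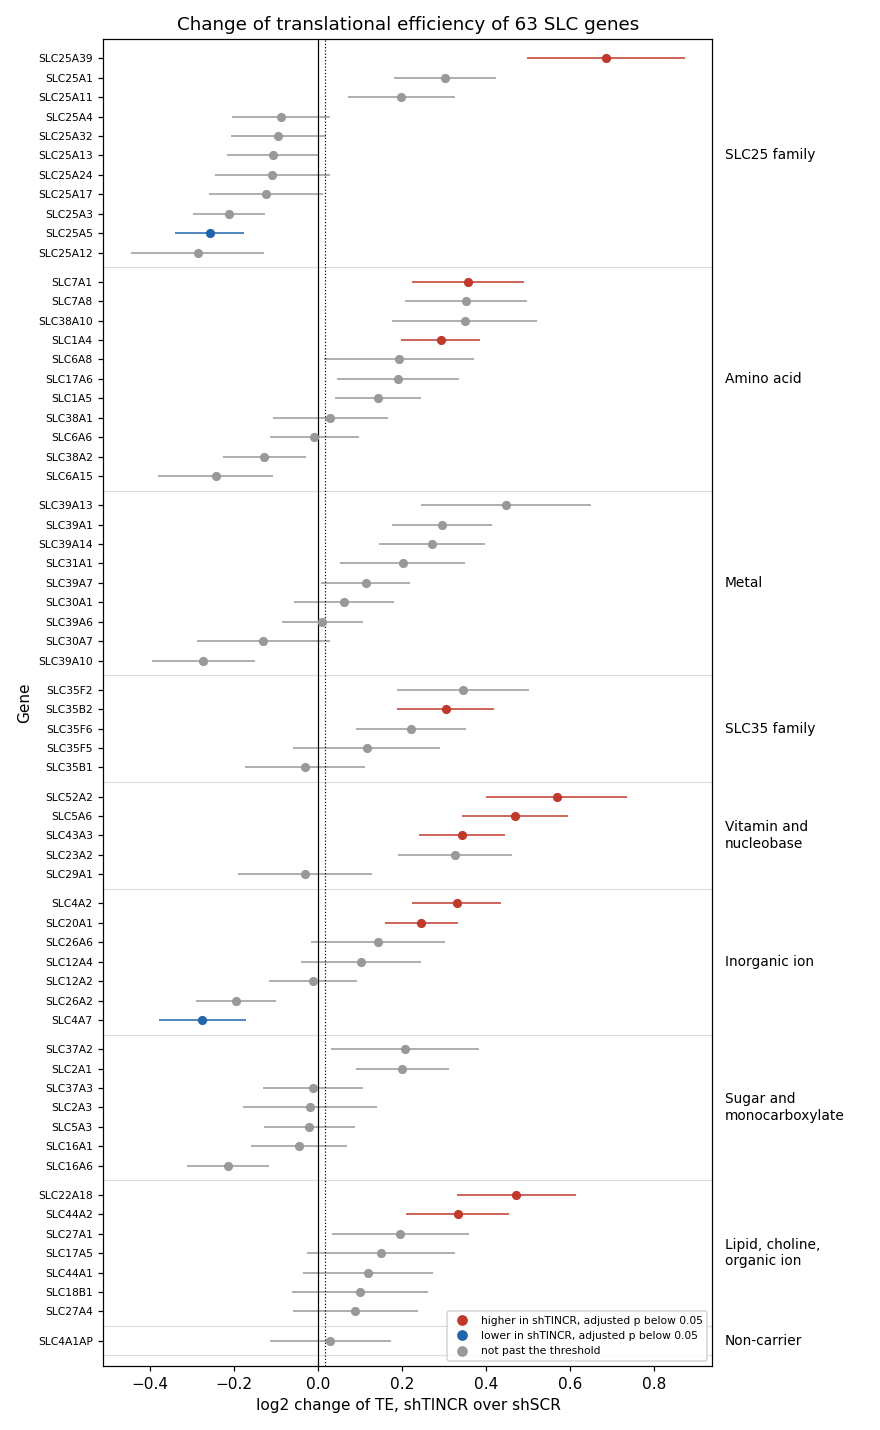
The log2 change of TE (shTINCR over shSCR) is plotted for each of the 63 SLC genes by class. Bars are the standard error implied by each change and its p-value, the dotted line is the median of all genes (0.02), and the 11 red points lie above 0 and the 2 blue points below it.

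The levels themselves were low for most carriers. The median log2 TE of the 63 genes was -0.52 in shTINCR cells and -0.64 in shSCR cells, beside 0.0019 in shTINCR and 0.0078 in shSCR cells for all genes. A log2 TE below 0 was found for 44 of 63 SLC genes in shTINCR cells (69.8%, against 49.8% of all genes) and for 46 in shSCR cells (73.0%, against 49.6% of all genes). Gene length cancels in this ratio only if footprints and RNA were counted over the same region, and no source used here names the counted region. At the low end, SLC35F5, a poorly characterised SLC35 protein, had a log2 TE of -2.92 in shTINCR and -3.04 in shSCR cells in the authors' deposited table. Its relative SLC35F2 followed with a log2 TE of -1.99 in shTINCR and -2.33 in shSCR cells in the authors' deposited table. Next came the choline carrier SLC44A1, with a log2 TE of -2.19 in shTINCR and -2.31 in shSCR cells in the authors' deposited table. SLC25A39 and the Golgi zinc carrier SLC30A7 completed the 5 lowest genes in shSCR cells. The 5 highest in shSCR cells were SLC25A5, SLC22A18, the nucleoside carrier SLC29A1, the glutamine carrier SLC1A5 and SLC4A1AP, which encodes kanadaptin and is not a carrier. SLC29A1 had a log2 TE of 1.04 in shTINCR and 1.07 in shSCR cells in the authors' deposited table, and SLC4A1AP had one of 0.63 in shTINCR and 0.60 in shSCR cells. The order of the genes was much the same in both conditions, with a Spearman rho of 0.960 across the 63 genes (Pearson r of 0.966). All 4616 genes gave much the same values (rho of 0.955, r of 0.963). Genes share the same libraries and are not independent replicates.

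**Figure D2:**
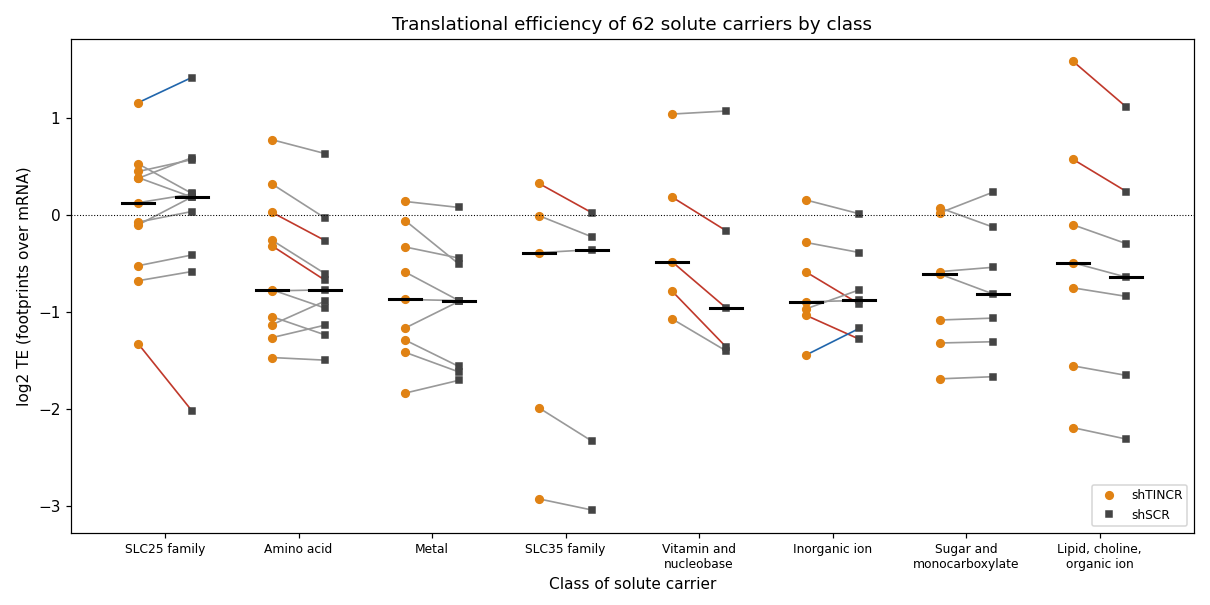
Log2 TE of the 62 carriers (kanadaptin left out) is plotted by class, with shTINCR to the left of shSCR, a line per gene (red, rose; blue, fell; grey, not past the threshold) and black bars for class medians. The SLC25 medians lie above 0 (0.12 in shTINCR and 0.18 in shSCR cells), while those of the other 7 classes lie below 0 in both conditions.

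Of the 11 measured SLC25 genes, 1 rose and 1 fell, or 18.2% called, close to the 16.4% of all genes. SLC25A39, which imports glutathione into mitochondria, had a log2 TE of -1.33 in shTINCR cells, against -2.01 in shSCR cells in the authors' deposited table. That is a 1.61-fold rise by the authors' deposited table (log2 change 0.68, adjusted p = 0.00463) and the largest change of any SLC gene described here. Its TE in shSCR cells lay at the 2.12 percentile of all genes. SLC25A5, the ADP/ATP exchanger that is the common form in growing cells, fell to a log2 TE of 1.15 in shTINCR cells, against 1.41 in shSCR cells in the authors' deposited table. The fall was to 0.837-fold by the authors' deposited table (log2 change -0.26, adjusted p = 0.0177). Its TE in shSCR cells lay at the 96.0 percentile of all genes. RefSeq lists 9 named pseudogenes of SLC25A5 and 2 of SLC25A39, with which reads can be shared, so both values are uncertain. Without the 5 SLC25 genes that have named pseudogenes, 0 of the remaining 6 passed the threshold, and the family's median log2 change was -0.10 in place of -0.11.

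Sequences around the annotated starts of SLC25A39 and SLC25A5, and of SLC4A2 and SLC4A7, are shown because these are the families in which 1 member rose and another fell. The first transcribed bases matter for translation, since mRNAs that begin with a C followed by a run of pyrimidines (the 5′ TOP motif) are a known class under mTORC1 control. Each window holds the 15 bases before and the 15 bases from the outermost start in RefSeq (GRCh38.p14). It is printed 5′ to 3′ on the transcribed strand, with capitals for the start base and, where that is a C, the pyrimidines that follow without a break. The windows are chr17:44324809-44324838 (minus strand) for SLC25A39, chrX:119468429-119468458 (plus strand) for SLC25A5, chr7:151058185-151058214 (plus strand) for SLC4A2 and chr3:27484370-27484399 (minus strand) for SLC4A7.
SLC25A39: cccttggctgctttcGgcgtcggcctaggt
SLC25A5: atttgcttcgctccgCCCCgcagcgccgga
SLC4A2: ccgctgttgttattcCTTTTatgtgctccc
SLC4A7: tccgccggttcgctcAgttctagcttcagg
A C at the start base followed by at least 4 bases that are each C or T, looked for at that position and on that strand only, was present in 3 of the 50 SLC genes with a promoter entry (6%), against 6.75% of the 3736 genes of the comparison that have one. The 3 were SLC4A2, which rose, and SLC27A1 and SLC29A1, which did not pass the threshold. SLC4A2 has 4 annotated starts, of which 1 holds the run, and SLC25A5 falls short of it with 3 pyrimidines after the C. The start used in these cells was not measured. The GC content of the first 50 transcribed bases had a median of 68% over the 50 SLC genes and 66% over the 3736 genes.

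The other 9 SLC25 genes did not pass the threshold, and 2 of them had an unadjusted p below 0.05. SLC25A1, which exports citrate for fatty acid synthesis, had a log2 TE of 0.52 in shTINCR and 0.22 in shSCR cells in the authors' deposited table (log2 change 0.30, adjusted p = 0.0702). SLC25A3, the phosphate and copper importer, had a log2 TE of 0.38 in shTINCR and 0.59 in shSCR cells in the authors' deposited table (log2 change -0.21, adjusted p = 0.0702). These 2 lay just outside the threshold, on opposite sides of 0. RefSeq lists 5 named pseudogenes of SLC25A1 and 3 of SLC25A3, so their values are uncertain as well. For the aspartate/glutamate exchangers of the malate-aspartate shuttle, the authors' deposited table gave log2 changes of -0.29 for SLC25A12 (adjusted p = 0.212) and -0.11 for SLC25A13. The 2-oxoglutarate carrier of the same shuttle, SLC25A11, had a log2 change of 0.20 in the authors' deposited table (adjusted p = 0.298). SLC25A4, the ADP/ATP exchanger of heart and muscle, had a log2 TE of 0.12 in shTINCR and 0.21 in shSCR cells in the authors' deposited table, with a log2 change of -0.09. In the authors' deposited table the ATP-Mg/phosphate carrier SLC25A24 stood at -0.11, the peroxisomal SLC25A17 at -0.12 and SLC25A32, a carrier of folate or FAD, at -0.09 on the scale of log2 changes. In all, 8 of the 11 SLC25 changes were below 0, beside 2169 of all 4616 genes, with a family median of -0.11 (0.928-fold). Outside SLC25, 15 of 52 changes were below 0, with a median of 0.14. There 10 genes rose (19.2%, against 8.23% of all genes) and 1 fell (1.92%, against 8.17% of all genes). The difference between SLC25 and the other SLC genes was not tested. The standard errors that p-values imply had a median of 0.122 within SLC25 and 0.135 outside it.

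**Figure D3:**
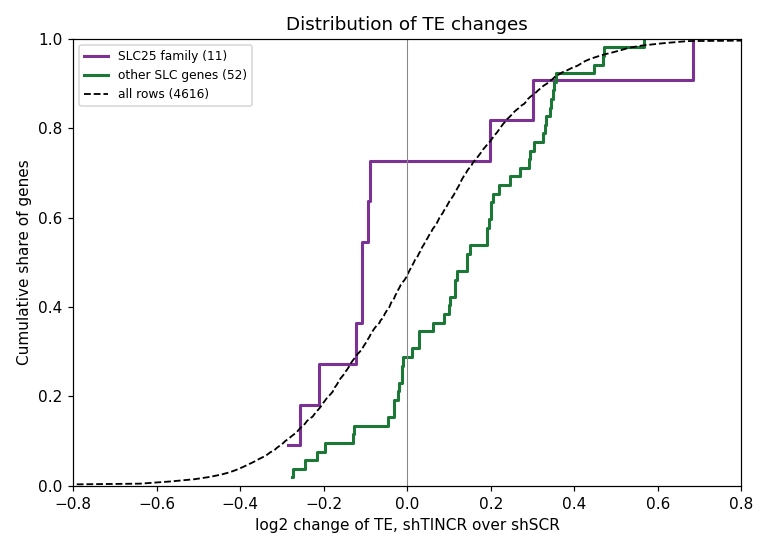
The cumulative share of genes is plotted against the log2 change of TE (shTINCR over shSCR) for the 11 SLC25 genes, the other 52 SLC genes and all 4616 genes. At a change of 0 the SLC25 line stands highest, with 8 of 11 genes below 0, and the line of the other SLC genes lowest, with 15 of 52. Of all 4616 genes, 2169 lay below 0.

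Among the 11 measured amino acid carriers, 2 rose and 0 fell (18.2% called, close to the 16.4% of all genes), with a median log2 change of 0.19 (1.14-fold). SLC7A1, the main importer of arginine and lysine, had a log2 TE of -0.32 in shTINCR cells, against -0.68 in shSCR cells in the authors' deposited table. By the authors' deposited table its TE rose 1.28-fold (log2 change 0.36, adjusted p = 0.0477). SLC1A4, which exchanges alanine, serine and cysteine, had a log2 TE of 0.03 in shTINCR cells, against -0.27 in shSCR cells in the authors' deposited table, a 1.22-fold rise (log2 change 0.29, adjusted p = 0.018). When each change was set against the median change of all genes (0.02) in place of 0, SLC7A1 no longer passed, and 1 amino acid carrier was left. Calls against that median rest on p-values rebuilt from the implied standard errors and are approximate. Among those that did not pass, SLC7A8, a light chain for large neutral amino acids that pairs with the excluded SLC3A2, had a log2 change of 0.35 in the authors' deposited table (adjusted p = 0.0778). SLC38A10, a less well known member of the SLC38 family, also had one of 0.35 in the authors' deposited table (adjusted p = 0.151). At the other end was SLC6A15, a sodium-dependent carrier of branched-chain amino acids, with a log2 TE of -1.13 in shTINCR and -0.89 in shSCR cells in the authors' deposited table (log2 change -0.24, adjusted p = 0.219).

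The glutamine carriers had small log2 changes of either sign. SLC1A5 had a log2 TE of 0.77 in shTINCR and 0.63 in shSCR cells in the authors' deposited table (log2 change 0.14, adjusted p = 0.358). SLC38A1 stood at a log2 TE of -1.47 in shTINCR and -1.50 in shSCR cells in the authors' deposited table (log2 change 0.03). SLC38A2, which is induced when amino acids run short, stood at a log2 TE of -1.26 in shTINCR and -1.14 in shSCR cells in the authors' deposited table (log2 change -0.13, adjusted p = 0.403). None of these 3 passed the threshold. Among the rest, the authors' deposited table put the log2 change at 0.19 for the creatine carrier SLC6A8, 0.19 for the vesicular glutamate carrier SLC17A6 and -0.0090 for the taurine carrier SLC6A6. Of 9 carriers listed as known targets of ATF4 or as induced by amino acid limitation, 5 were among the SLC genes described here (SLC1A4, SLC1A5, SLC7A1, SLC38A1 and SLC38A2). Of these, 2 rose and 0 fell, beside 8.23% of all genes that rose and 8.17% that fell. The 2 were SLC7A1 and SLC1A4, already counted above among the amino acid carriers.

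Of the 9 measured metal carriers, 0 passed the threshold in the authors' comparison, against 16.4% of all genes. An unadjusted p below 0.05 was found for 4 of the 9, against 1363 of all 4616 genes. SLC39 proteins bring zinc into the cytosol and SLC30 proteins take it out. SLC39A13, which releases zinc from intracellular stores, had a log2 TE of -0.06 in shTINCR and -0.51 in shSCR cells in the authors' deposited table (log2 change 0.45, adjusted p = 0.115). Its implied standard error of 0.202 was the largest of all 63 genes. SLC39A1, a zinc importer of the plasma membrane, had a log2 TE of -0.59 in shTINCR and -0.88 in shSCR cells in the authors' deposited table (log2 change 0.29, adjusted p = 0.0709). SLC39A14, which also carries iron and manganese, had a log2 change of 0.27 in the authors' deposited table (adjusted p = 0.126). Against these 3, SLC39A10, another plasma membrane importer, had a log2 TE of -1.16 in shTINCR and -0.89 in shSCR cells in the authors' deposited table (log2 change -0.27, adjusted p = 0.111). The authors' deposited table gave log2 changes of 0.11 for the endoplasmic reticulum zinc channel SLC39A7 and 0.01 for SLC39A6. Of the exporters, SLC30A1 of the plasma membrane stood at 0.06 and SLC30A7 of the Golgi at -0.13, and the copper importer SLC31A1 at 0.20, as log2 changes in the authors' deposited table. The median log2 change was 0.19 over the 6 SLC39 genes and 0.11 over all 9 metal carriers (1.08-fold).

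The SLC35 family, which is known for nucleotide-sugar carriers of the Golgi and endoplasmic reticulum, had 5 measured members, and none of the 5 is established as a carrier of a nucleotide sugar. SLC35B2, which brings the sulfate donor PAPS into the Golgi, had a log2 TE of 0.32 in shTINCR cells, against 0.02 in shSCR cells in the authors' deposited table. By the authors' deposited table its TE rose 1.23-fold (log2 change 0.30, adjusted p = 0.0496), the call closest to the threshold among the 13. It no longer passed when set against the median of all genes, which left 0 of 5. SLC35B1, which supplies the endoplasmic reticulum with ATP, had a log2 change of -0.03 in the authors' deposited table. For the less well characterised SLC35F2, SLC35F6 and SLC35F5, the authors' deposited table gave log2 changes of 0.34 (adjusted p = 0.119), 0.22 and 0.12. SLC26A2, which supplies sulfate from outside the cell for the same sulfation reactions that use PAPS, had a log2 change of -0.20 in the authors' deposited table (adjusted p = 0.143).

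Of 5 measured vitamin and nucleobase carriers, a class put together with values known, 3 rose and 0 fell, beside 8.23% of all genes that rose. SLC52A2, a riboflavin importer, had a log2 TE of -0.79 in shTINCR cells, against -1.36 in shSCR cells in the authors' deposited table, a 1.48-fold rise (log2 change 0.57, adjusted p = 0.00923). SLC5A6, the sodium-dependent importer of biotin and pantothenate, had a log2 TE of -0.49 in shTINCR cells, against -0.96 in shSCR cells in the authors' deposited table. By the authors' deposited table its TE rose 1.38-fold (log2 change 0.47, adjusted p = 0.00407), the smallest p of the 63 genes. SLC43A3, which carries adenine and other purine nucleobases, had a log2 TE of 0.18 in shTINCR cells, against -0.16 in shSCR cells in the authors' deposited table (1.27-fold, log2 change 0.34, adjusted p = 0.0107). SLC23A2, an ascorbate importer, did not pass, with a log2 change of 0.33 in the authors' deposited table (adjusted p = 0.0838), and SLC29A1 stood at -0.03. SLC5A6 and SLC43A3 were put into this class by substrate with their values known. By family number alone SLC5A6 belongs with sugar carriers and SLC43A3 with amino acid carriers. That grouping also moves SLC35B1 to the vitamin, nucleoside and cofactor carriers and SLC17A6 out of the amino acid carriers. With all these moves, 1 of 4 vitamin, nucleoside and cofactor carriers and 3 of 11 amino acid carriers rose.

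Of 7 inorganic ion carriers, 2 rose and 1 fell (42.9% called, beside 16.4% of all genes). The bicarbonate carriers SLC4A2 and SLC4A7 had changes of TE of opposite sign. SLC4A2, a chloride/bicarbonate exchanger that lowers cytosolic pH, had a log2 TE of -0.59 in shTINCR cells, against -0.92 in shSCR cells in the authors' deposited table (1.26-fold, log2 change 0.33, adjusted p = 0.0186). SLC4A7, a sodium bicarbonate importer that raises it, had a log2 TE of -1.44 in shTINCR cells, against -1.17 in shSCR cells in the authors' deposited table (0.826-fold, log2 change -0.27, adjusted p = 0.0474). SLC20A1, a phosphate importer, had a log2 TE of -1.03 in shTINCR cells, against -1.28 in shSCR cells in the authors' deposited table (1.19-fold, log2 change 0.25, adjusted p = 0.0324), and 3 named pseudogenes in RefSeq. The cation chloride carriers that regulate cell volume were among those that did not pass. In the authors' deposited table SLC12A2 had a log2 change of -0.01 and SLC12A4 one of 0.10, beside 0.14 for the anion exchanger SLC26A6.

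Sugar and monocarboxylate carriers passed in 0 of 7 cases in the authors' comparison, against 16.4% of all genes. An unadjusted p below 0.05 was found for 1 of the 7, against 1363 of all 4616 genes. The glucose importer SLC2A1 had a log2 TE of 0.07 in shTINCR and -0.13 in shSCR cells in the authors' deposited table (log2 change 0.20, adjusted p = 0.213). A second glucose importer, SLC2A3, had one of -1.08 in shTINCR and -1.06 in shSCR cells in the authors' deposited table (log2 change -0.02). For the lactate carrier SLC16A1 the authors' deposited table gave a log2 change of -0.05, and for its relative SLC16A6 one of -0.22 (adjusted p = 0.115). The others were the glucose-6-phosphate carrier SLC37A2 (0.21, adjusted p = 0.455), SLC37A3 (-0.01) and the inositol importer SLC5A3 (-0.02), as log2 changes in the authors' deposited table. The class median was -0.02 (0.987-fold), close to the median of all genes.

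All 7 carriers of lipids, choline and organic ions had a log2 change above 0, against 52.5% of all genes. This is a mixed class, chosen with earlier results of these data known, and its difference from all genes was not tested. Past the threshold, 2 of them rose (28.6%, against 8.23% of all genes), and the other 5 were not called. SLC22A18, a transporter-like protein encoded in an imprinted gene cluster and listed in RefSeq under the newer symbol SLC67A1, had a log2 TE of 1.58 in shTINCR cells, against 1.11 in shSCR cells in the authors' deposited table. By the authors' deposited table its TE rose 1.39-fold (log2 change 0.47, adjusted p = 0.0108). Its TE in shSCR cells lay at the 92.3 percentile of all genes, so the genes that rose included carriers of both low and high TE. SLC44A2, a choline carrier, had a log2 TE of 0.57 in shTINCR cells, against 0.24 in shSCR cells in the authors' deposited table (1.26-fold, log2 change 0.33, adjusted p = 0.0433), and no longer passed when set against the median of all genes. The second choline carrier, SLC44A1, had a log2 change of 0.12 in the authors' deposited table (adjusted p = 0.645). Of the fatty acid carriers, SLC27A1 stood at 0.20 and SLC27A4 at 0.09 as log2 changes in the authors' deposited table. The lysosomal sialic acid exporter SLC17A5 had one of 0.15 and the vesicular polyamine carrier SLC18B1 one of 0.10 in the authors' deposited table. Kanadaptin (SLC4A1AP) had a log2 change of 0.03 in the authors' deposited table.

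Members of SLC families that go by other symbols were counted beside these genes. Of 66 symbols listed, 15 had a row, of which 3 rose and 0 fell (20.0% called, beside 16.4% of all genes), with a median log2 change of 0.09. MFSD12, a cysteine importer of melanosomes and lysosomes, had a log2 TE of 0.35 in shTINCR cells, against -0.22 in shSCR cells in the authors' deposited table (log2 change 0.57, adjusted p = 8.59e-06). The lysosomal lipid exporter SPNS1 rose by 0.62 (adjusted p = 0.0151) and the pyrophosphate and ATP exporter ANKH by 0.28 (adjusted p = 0.0474) as log2 changes in the authors' deposited table. Of the carrier-related mitochondrial proteins, MTCH1 had a log2 change of 0.12 and MTCH2 one of -0.11 in the authors' deposited table.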

How the data were processed

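Per the labels' protocols, footprint and RNA libraries were made from 2 biological replicates of either condition. Genome build hg19 and, among other tools, HTSeq 0.5.3p9 and TopHat2 2.0.8 are listed without roles, per the submitters' processing notes. What made the TE columns, which region was counted and how low values were filtered is not stated in any source used here. The authors' deposited table of 4616 genes holds log2 values (log2 TE per condition and log2 change, in 2 versions and a final one), per the file headers. Its deposited p-value columns hold a p-value per version, the final p-value, which is the larger one in all 4616 rows, and an adjusted p-value that equals Benjamini-Hochberg over all rows. With 0 columns of single libraries, no count test could be run.

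A gene was called where the deposited adjusted p was below 0.05. Folds are antilogs of the deposited log2 change. The implied standard error is the log2 change over the normal statistic of its p-value. For calls against the median of all genes, p-values were rebuilt from this standard error and adjusted by Benjamini-Hochberg over all rows. They assume a normal statistic, and whether the deposited p-values came from one is not known. Symbols were matched to RefSeq (GRCh38.p14): 62 were current and 1 had been renamed. All 63 members may be named, and of other lists the members past the threshold, at most 8. MTCH1, MTCH2, BSG and the VDAC, ABC and pump genes were named after their values were seen. Members, classes and lists were chosen with earlier results of these data known. The steps ran in Python 3.11.15 (scipy 1.17.1 for normal quantiles, pandas 2.3.3 for tables).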

Additional observations from a re-analysis of the deposited data

How the results depend on the processing

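No paired analysis was possible because the table has no column of a single library, and leaving out a replicate could not be run for the same reason. Precision rests on 2 replicates per group of unknown depth. Of the 63 SLC genes, 16 passed with the first version of the p-value, against 17.9% of all genes. Of these, 14 rose (9.23% of all genes) and 2 fell (8.71%). With the second version 15 passed (against 20.3%), 12 upwards (11%) and 3 downwards (9.23%). At an adjusted p below 0.1, 18 passed (against 22%), 15 upwards (11.5%) and 3 downwards (10.4%). At 0.01, 3 passed, all upwards (SLC5A6, SLC25A39 and SLC52A2). That is a smaller share than the 7.82% of all genes, of which 3.62% rose. With Bonferroni 0 passed, against 2.6% of all genes. Set against the median of all genes, an alternative chosen after seeing the data, 11 passed (against 15.9%). Of these, 8 were upwards (7% of all genes) and 3 downwards (8.86%). Without genes that have named pseudogenes 10 of 50 passed, 9 upwards and 1 downwards. Beside these stand 16.4% of all genes, pseudogene-bearing ones included (8.23% upwards, 8.17% downwards). The class counts that follow are to be read beside the same shares of all genes, setting by setting. SLC25 counts, out of 11, were 2 in the main comparison and 4 with the second version and at 0.1 (adding SLC25A1 and SLC25A3). They were 3 against the median of all genes (adding SLC25A3), 1 at 0.01 and 0 with Bonferroni. Without pseudogene-bearing genes, 0 of 6 passed. Amino acid carriers passed in 2 of 11 cases, 0 at 0.01 and with Bonferroni, and 1 against the median of all genes. Metal carriers passed in 0 of 9 cases and in 1 (SLC39A1) with the first version and at 0.1. SLC35 genes passed in 1 of 5 cases and in 2 with the first version. They passed in 0 at 0.01, with Bonferroni and against the median of all genes. The median of sugar and monocarboxylate carriers was 0.094 over the 4 without named pseudogenes, in place of -0.02. All 13 called genes kept their sign with either version of the log2 change and against the median of all genes, while the other thresholds and Bonferroni leave the change itself untouched.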

Other observations

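Transport proteins outside the SLC families were measured in the same comparison. Of all 4616 genes, 16.4% passed the authors' threshold and 1363 had an unadjusted p below 0.05. Of 6 measured ABC transporters, which use ATP to move lipids, peptides and drugs, 0 passed and 1 had an unadjusted p below 0.05. ABCC1, an exporter of glutathione conjugates, had a log2 TE of 0.63 in shTINCR and 0.28 in shSCR cells in the authors' deposited table (log2 change 0.35, adjusted p = 0.104). Of 10 measured P-type ATPase pumps, 0 passed and 3 had an unadjusted p below 0.05. ATP1B3, a beta subunit of the pump that builds the sodium gradient many SLC proteins draw on, had a log2 TE of 0.68 in shTINCR and 0.89 in shSCR cells in the authors' deposited table (log2 change -0.21, adjusted p = 0.111). The smallest adjusted p among the pumps was that of ATP9A, a P4-type ATPase of endosomes, with a log2 TE of -1.60 in shTINCR and -1.87 in shSCR cells in the authors' deposited table (log2 change 0.27, adjusted p = 0.0655). The calcium pump ATP2B4 had a log2 change of 0.27 in the authors' deposited table (adjusted p = 0.0728). The 3 VDAC pores, through which metabolites cross the mitochondrial outer membrane, had log2 changes between -0.15 and -0.10 in the authors' deposited table. Of all 4616 genes, 2169 had a change below 0. None of the 3 pores passed, also at an unadjusted p below 0.05. BSG, the partner that brings lactate carriers such as SLC16A1 to the plasma membrane, had a log2 TE of 1.79 in shTINCR and 1.57 in shSCR cells in the authors' deposited table (log2 change 0.23, adjusted p = 0.0595).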
